A study of Homo sapiens with 20 samples.

Results

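Regions of acetylated histone H3 lysine 27 (H3K27ac) that carried a peak in every one of 16 libraries of HCT-116 cells are described here. The peak lists of the 16 libraries were merged on chromosomes 1 to 22 and X wherever peaks shared at least 1 bp, and a merged region was kept when all 16 lists had a peak in it. This gave 472 regions of 58859, merged from 271549 peaks. The regions were chosen by measured values, namely the peak calls themselves, so their presence in all libraries is a description and was not tested.

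HCT-116 is an established human colorectal cancer cell line. The cells were wild type (WT) or FBXW7-/- (KO), FBXW7 being the subunit of a ubiquitin ligase that selects proteins for degradation. All groups were transfected for 48 h with esiRNAs, which are pools of short interfering RNAs, either control ones (esiCT) or ones against the histone deacetylase HDAC4 (esiHDAC4). During the last 24 h they were left untreated (UNT) or received 50 µM of the platinum drug oxaliplatin (OXPT). The 8 groups were WT esiCT UNT, WT esiCT OXPT, WT esiHDAC4 UNT, WT esiHDAC4 OXPT and the same 4 in KO cells, each with 2 libraries named replicate A and replicate B. WT and KO cells came from 1 supplier as 1 line each, so a difference between the lines and the loss of FBXW7 cannot be told apart. The labels add that 3 experiments were pooled without saying how these relate to the letters, so p-values measure only the spread between these libraries, which may be technical.

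H3K27ac is laid down by acetyltransferases at active promoters and enhancers and is removed by histone deacetylases. Promoters lie at the start sites of genes and often hold CpG islands, whereas enhancers lie in introns or between genes and act over a distance. Long stretches of closely spaced, strongly acetylated enhancers are called super-enhancers (SEs), and in many tissues they sit beside genes that mark cell identity. A peak's summit fold is the pileup of fragments at its highest point divided by the local background, with a small constant added to both. The constant lowers the fold more where both counts are small, as in shallow libraries.

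The sequences at the summits are shown first, since most of the 472 regions lay away from promoters and were poor in G and C. Each is the 300 bp around the summit of the strongest peak in hg38, plus strand, of 3 of the regions with the highest fold in nearly every library and of 3 regions that differed between KO and WT cells. Capitals mark the CCAAT box, known to be bound by NFY, on either strand, and the site TGTTTAC, known to be bound by FOX factors. No match to the other motifs searched occurred in these 6 windows, and no match says only that these letters are not in this window.

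PCDH7 region 2: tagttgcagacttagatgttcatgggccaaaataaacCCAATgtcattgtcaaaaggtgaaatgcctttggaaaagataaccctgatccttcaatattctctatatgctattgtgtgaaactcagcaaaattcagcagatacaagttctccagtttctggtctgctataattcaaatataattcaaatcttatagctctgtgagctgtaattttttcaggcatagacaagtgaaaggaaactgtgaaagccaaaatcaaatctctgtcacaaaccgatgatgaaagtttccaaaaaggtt
BLID region 2: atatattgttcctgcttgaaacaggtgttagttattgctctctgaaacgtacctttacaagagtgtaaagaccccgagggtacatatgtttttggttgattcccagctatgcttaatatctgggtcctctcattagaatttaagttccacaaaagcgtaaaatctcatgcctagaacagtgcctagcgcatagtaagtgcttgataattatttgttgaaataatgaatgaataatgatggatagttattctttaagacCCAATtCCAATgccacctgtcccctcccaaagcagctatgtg
KITLG region 2: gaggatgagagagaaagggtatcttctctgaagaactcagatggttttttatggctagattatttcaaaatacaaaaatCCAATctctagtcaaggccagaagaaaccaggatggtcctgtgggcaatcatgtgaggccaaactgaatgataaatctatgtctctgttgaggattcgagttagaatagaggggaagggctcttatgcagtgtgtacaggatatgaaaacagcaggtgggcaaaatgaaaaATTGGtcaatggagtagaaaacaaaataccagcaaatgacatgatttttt
HAS3: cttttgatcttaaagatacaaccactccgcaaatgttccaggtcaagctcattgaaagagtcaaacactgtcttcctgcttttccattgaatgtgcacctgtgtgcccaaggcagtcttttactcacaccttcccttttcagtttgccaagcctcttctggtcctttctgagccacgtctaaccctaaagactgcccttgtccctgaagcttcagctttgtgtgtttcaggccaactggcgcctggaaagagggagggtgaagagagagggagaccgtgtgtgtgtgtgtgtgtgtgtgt
DIPK2B: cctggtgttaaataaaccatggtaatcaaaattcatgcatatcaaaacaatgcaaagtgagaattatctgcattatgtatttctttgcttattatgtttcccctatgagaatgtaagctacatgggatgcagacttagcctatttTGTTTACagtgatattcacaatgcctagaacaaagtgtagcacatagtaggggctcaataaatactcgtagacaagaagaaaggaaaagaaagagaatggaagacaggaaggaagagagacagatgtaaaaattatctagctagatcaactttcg
CYTH4: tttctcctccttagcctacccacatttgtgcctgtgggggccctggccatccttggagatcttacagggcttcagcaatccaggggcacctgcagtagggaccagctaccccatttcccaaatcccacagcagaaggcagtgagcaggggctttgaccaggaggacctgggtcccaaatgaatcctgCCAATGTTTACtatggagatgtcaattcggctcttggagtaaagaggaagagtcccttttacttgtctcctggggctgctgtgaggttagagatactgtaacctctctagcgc

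The window of PCDH7 region 2 was at chr4:30791515-30791814, that of BLID region 2 at chr11:122196521-122196820 and that of KITLG region 2 at chr12:88933326-88933625. The HAS3 window was at chr16:69071751-69072050, the DIPK2B window at chrX:45709709-45710008 and the CYTH4 window at chr22:37328454-37328753. Their G and C content was 35.3%, 38.3%, 39.0%, 49.0%, 35.0% and 53.3% in the same order. In the CYTH4 window the 2 motifs overlap by 1 base. Regions are named by the protein-coding genes with a start site within 1 kb, otherwise by the nearest start site, which does not say that the region acts on that gene.

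Most regions called in every library were not promoters. Of the 472, 164 (34.7%, 95% Wilson interval 30.59 to 39.15, counting error only) lay within 1 kb of a protein-coding start site, 107 (22.7%) lay in introns, 3 in exons and 198 (41.9%) between genes. A start site lay more than 50 kb away for 167 regions (35.4%), against 521 (12.9%) of the 4039 regions called in 12 to 15 libraries. Start sites of long noncoding RNAs were near 51 of the 308 regions away from coding start sites (16.6%), and 257 regions had neither kind of start site within 1 kb.

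The start-site share did not climb steadily with the number of libraries. It was 11.8% among the 30533 regions called in 1 library, reached 70.7% at 11 libraries, and was then 69.7%, 66.9%, 60.5% and 47.8% at 12, 13, 14 and 15 libraries and 34.7% at 16. Over the same steps the median span went from 341 bp at 1 library through 1997.5 bp at 11 to 6300.5 bp at 16. Among regions of 8 kb and more the share was 28.6% for the 472 regions and 32.1% at 12 to 15 libraries, whereas among those of 2 to 4 kb it was 40.6% against 65.8%. The letters moved with this pattern: the 4572 regions called in all 8 replicate A libraries had a start-site share of 65.3% and the 513 called in all 8 replicate B libraries 29.4%.

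**Figure D1:**
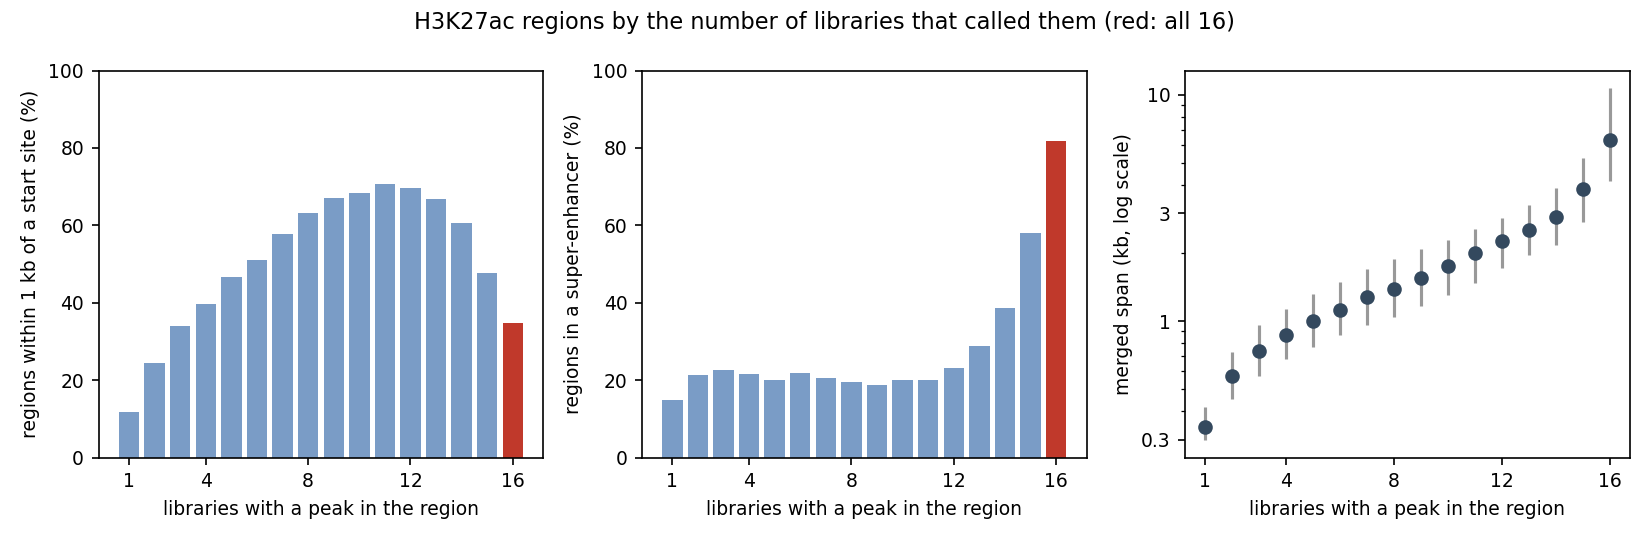
Bars give the percentage of merged regions within 1 kb of a protein-coding start site (left) and in an SE of at least 1 library (middle), and points give the median span in kb on a log axis with its quartiles (right), by the number of libraries that called a region. The start-site share peaks at 70.7% at 11 libraries and is 34.7% at 16 (red), where the SE share is highest at 81.8%.

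A single library set the limit of the group. KO esiHDAC4 UNT replicate B held 1752 peaks, while the 16 lists ranged from 1752 to 27927 with a median of 19744, and it was the missing library for 648 (83.9%) of the 772 regions called in 15. Without it, 1120 regions were called in all the other libraries, with a start-site share of 41.6%, an SE share of 68.9% and a median span of 4759 bp, and the start-site share at 11 libraries was 70.8%. Leaving out any other library gave 472 to 508 regions.

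Just outside the limit stood regions with strong peaks in 15 libraries. Of the 5 with the highest median fold, some lay near ANXA10 (7.64), an annexin gene, PDE4B (7.29), a phosphodiesterase gene of cyclic AMP, and CHST15 (7.21). The others lay within 1 kb of the start sites of BRD2 and HLA-DMA (7.16) and of YAP1 (7.104), the effector of the Hippo pathway. All 5 lacked a peak only in KO esiHDAC4 UNT replicate B. Just inside stood the regions with the lowest mean rank, all away from start sites. They were those near MMEL1 with a median fold of 3.03, NBPF1 with 4.11 and PIK3CB with 4.19, NACA2 region 1 with 4.14 and ACSL5 region 2 with 4.48. The median over regions of the median fold was 5.16 at 15 libraries (range 1.75 to 7.64) and 5.80 at 16 (range 3.03 to 9.70).

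The regions were long, and many had no stretch shared by all libraries. Their median span was 6300.5 bp (95% interval 5932 to 6718, counting error only, quartiles 4154 and 10685, range 676 to 102120), against 2626 bp at 12 to 15 libraries. The longest peak in a region measured 1930.5 bp at the median over libraries and regions, and in a library 39.8% to 83.7% of the regions held 2 or more peaks. In 235 regions some bases lay under a peak in all 16 libraries, and in the other 237 the libraries' peaks were joined only through one another. A longer merged region has more room for a peak in each list, so span is partly set by the merging.

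SEs covered most of the regions. Of the 472, 386 (81.8%, 95% Wilson interval 78.05 to 85.0, counting error only) overlapped an SE of at least 1 library. Neighbouring regions can share an SE, so this interval may be too narrow. SEs of 8 or more libraries overlapped 274 (58.1%) and SEs of all 16 overlapped 70 (14.8%). At 12 to 15 libraries the same counts were 1391 (34.4%), 518 (12.8%) and 3 of the 4039 regions. Away from start sites 291 of 308 regions (94.5%) touched an SE, at start sites 95 of 164 (57.9%). Compared at equal span, regions of 4 to 8 kb away from start sites were in an SE in 97.5% of cases when called in all libraries and in 92.5% at 12 to 15, and those of 8 kb and more in 100% of both. Shorter regions differed more, with 80.7% against 68.1% at 2 to 4 kb away from start sites and 28.2% against 8.5% at 2 to 4 kb at start sites. In SEs of 8 or more libraries were 62.7% against 48.7% of the regions of 4 to 8 kb away from start sites. In a single library 99 to 342 of the 472 regions (20.97% to 72.5%) lay in an SE. The SEs were built from the same libraries, so this overlap is not independent of the peak calls.

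Base composition set these regions apart from those called in fewer libraries. The median G and C content of the 300 bp at the summit was 43.3%, against 54.0% at 12 to 15 libraries, 57.7% at 8 to 11 and 48.3% at 1. Away from start sites it was 40.0% against 46.7% at 12 to 15, and at start sites 53.3% against 59.7%.

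The letters moved with base composition too. Among the 1752 strongest peaks of each library, the median G and C content was 51.5% to 62.3% in the 8 replicate A libraries and 39.7% to 46.0% in the 8 replicate B libraries, with no overlap. The start-site share of these peaks was 44.9% to 65.7% in replicate A and 21.1% to 46.6% in replicate B, where the ranges overlapped slightly. A given region had to be called in the libraries of both letters to be among the 472, and the part of this shift in the low start-site share was not tested.

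**Figure D2:**
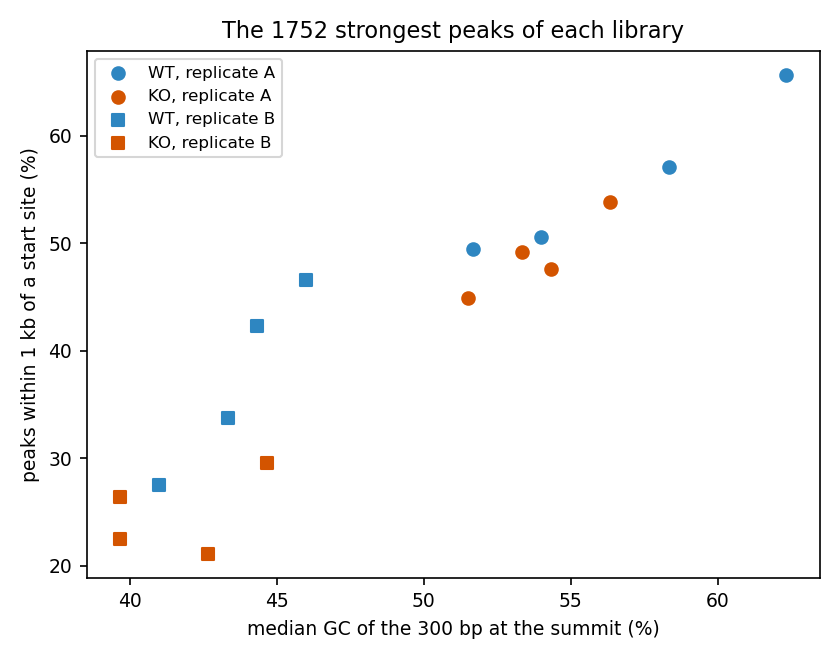
Each point is 1 library, with the median G and C content of the 300 bp at the summits of its 1752 strongest peaks (%) on the horizontal axis and the share of those peaks within 1 kb of a start site (%) on the vertical axis. The 8 replicate A libraries (circles) all lie at 51.5% G and C or above and the 8 replicate B libraries (squares) at 46.0% or below, in WT (blue) and KO (orange) alike.

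Some sequence motifs followed the base composition. In all, 13 motifs were searched on both strands of the 300 bp windows: the GC box GGGCGG, the NFY box CCAAT, the ETS site CCGGAAG, the NRF1 site GCGCATGC, the YY1 site AAGATGGC, the ZBTB33 site TCTCGCGA, the E-box CACGTG, the CRE TGACGTCA, the AP-1 site TGANTCA, the TEAD site GGAATG, the FOX site TGTTTAC, the MEF2 core TAAAAATA and the TATA box TATAAA, of which the last pair can overlap. The GC box GGGCGG, known to be bound by SP and KLF factors, was in 11.2% of the 472 windows, 30.5% of those at 12 to 15 libraries and 18.9% of all 58859. CCAAT was in 34.3%, 25.4% and 27.5% of the same windows, and TATAAA in 21.4%, 13.4% and 16.5%.

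Motifs of factors linked to enhancers or to HDAC4 also had higher shares than at 12 to 15 libraries, and away from start sites the shares lay closer together. The AP-1 site TGANTCA was in 8.1% of the 472 windows, 5.8% of those at 12 to 15 libraries and 7.8% of all windows. TAAAAATA, the core bound by MEF2 factors, which recruit HDAC4, was in 11.9%, 7.8% and 9.7%, and the FOX site TGTTTAC in 5.3%, 3.3% and 3.5%. Away from start sites the shares at 16 and at 12 to 15 libraries were 8.4% and 7.6% for the AP-1 site, 13.96% and 12.2% for the MEF2 core and 4.9% and 4.7% for the FOX site. Of all regions away from start sites 9.1% held the AP-1 site. At start sites the shares at 16 and at 12 to 15 libraries were 7.3% and 4.8% for the AP-1 site, 7.9% and 5.2% for the MEF2 core and 6.1% and 2.4% for the FOX site. The CRE TGACGTCA was in 0 of the 472 windows and in 0.192% of all.

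Many of the regions lay close together along the genome. Joined within 100 kb, the 472 regions formed 300 neighbourhoods, of which 222 held a single region, 78 held at least 2 and together 250 regions (52.97%), and 11 held 5 or more. The most crowded, at RBM12B, TMEM67 and PDP1 on chromosome 8, held 10 regions in 201.83 kb. The second, at ACSL5 and ZDHHC6 on chromosome 10, held 9 regions, and the neighbourhood of PCDH7 on chromosome 4 held 7 regions that covered 268.69 of its 358.5 kb. A further neighbourhood on chromosome 6 held 5 regions at replication-dependent histone genes. Neighbourhoods were not counted for regions called in fewer libraries. Merging at an overlap of 1 bp can also split a stretch into neighbouring regions. Chromosome 4 carried 38 regions (8.05%, against 4.65% of all merged regions) and chromosome 17 carried 42 (8.90% against 6.36%). Chromosome 19 carried 12 (2.54% against 5.09%), chromosome 14 carried 3 (0.636% against 3.21%), chromosome 15 also 3 (0.636% against 2.98%), and chromosome 21 none.

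The strongest regions stood high in nearly every library. Folds were ranked within each library as a percentile from 0 to 100 among the 472 regions, since folds depend on a library's depth and background. PCDH7 region 2 (chr4:30749007-30851126), in an intron of the protocadherin gene PCDH7, was the widest region at 102.12 kb and had the highest mean percentile, 96.9. Its fold ranged from 6.76 through a median of 9.70 to 11.7 and its percentile from 84.9 to 99.7, with the lowest value in WT esiCT OXPT replicate A. It lay in an SE in 16 of 16 libraries, and 11964 of its bases were under a peak in all of them.

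The other regions of high rank were also long and far from start sites. A region takes the fold of its strongest peak, and a longer region can hold more peaks, so length and rank are not independent. BLID region 2 (chr11:122167241-122197109), 51.026 kb from its nearest coding start site, had a mean percentile of 95.03 (89.7 to 99.7) and lay in an SE in 10 libraries. KITLG region 2 (chr12:88917472-88972105), 336.621 kb from the gene of stem cell factor, had 93.9 (76.4 to 99.7). PPP3CA region 5 (chr4:101134322-101175012), in an intron of a catalytic subunit gene of calcineurin, had 93.7 (64.0 to 99.7). MTAP region 1, KRR1 region 4, DCBLD2 region 2 and IFNE region 1 followed with 93.4, 90.9, 90.6 and 90.2. Apart from BLID region 2, these 8 regions lay in an SE in all 16 libraries. The 5 widest regions were PCDH7 region 2, PCDH7 region 5 (57.643 kb, mean percentile 86.8), KITLG region 2 (54.634 kb), IFNE region 1 (53.937 kb) and the region near KLF14 (43.671 kb, 87.1), a gene of the KLF factors.

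For most regions the rank varied between the 2 replicates of a group. The median within-group SD of the percentile was 21.8 points. The lowest were 2.27 for PCDH7 region 2, 2.37 for BLID region 2 and 3.93 near MMEL1. The highest were 37.3 at ANXA2, 37.8 near H6PD, 38.5 for OLA1 region 1, 41.0 for NTSR1 region 3 and 41.3 at RRP12 and PGAM1, a glycolytic gene. At RRP12 and PGAM1 the KO esiCT UNT libraries differed most, with a fold of 10.6 in replicate A and 4.03 in replicate B. Spearman's rho between the ranks of 2 libraries over the 472 regions, as a description, was 0.321 to 0.436 for replicates of a group and averaged 0.511 for different groups of the same genotype and letter. Libraries that shared only the genotype or only the letter averaged 0.343 and 0.338, and those that shared neither 0.332.

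The folds rested on few fragments. The summit pileup recovered from the fold and the p-value had a median of 13 to 40 fragments over the 472 regions in a library, and the local background a median of 1.47 to 5.00. The median fold of the regions was lowest in WT esiCT OXPT replicate B (5.09) and highest in replicate A of WT esiCT UNT (7.37). Within their own lists the regions had a median percentile of 67.7 in the shortest list and of 84.1 to 95.9 in the others. Each region was placed by its strongest peak and was chosen by calls in every list, both of which favour high places.

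**Figure D3:**
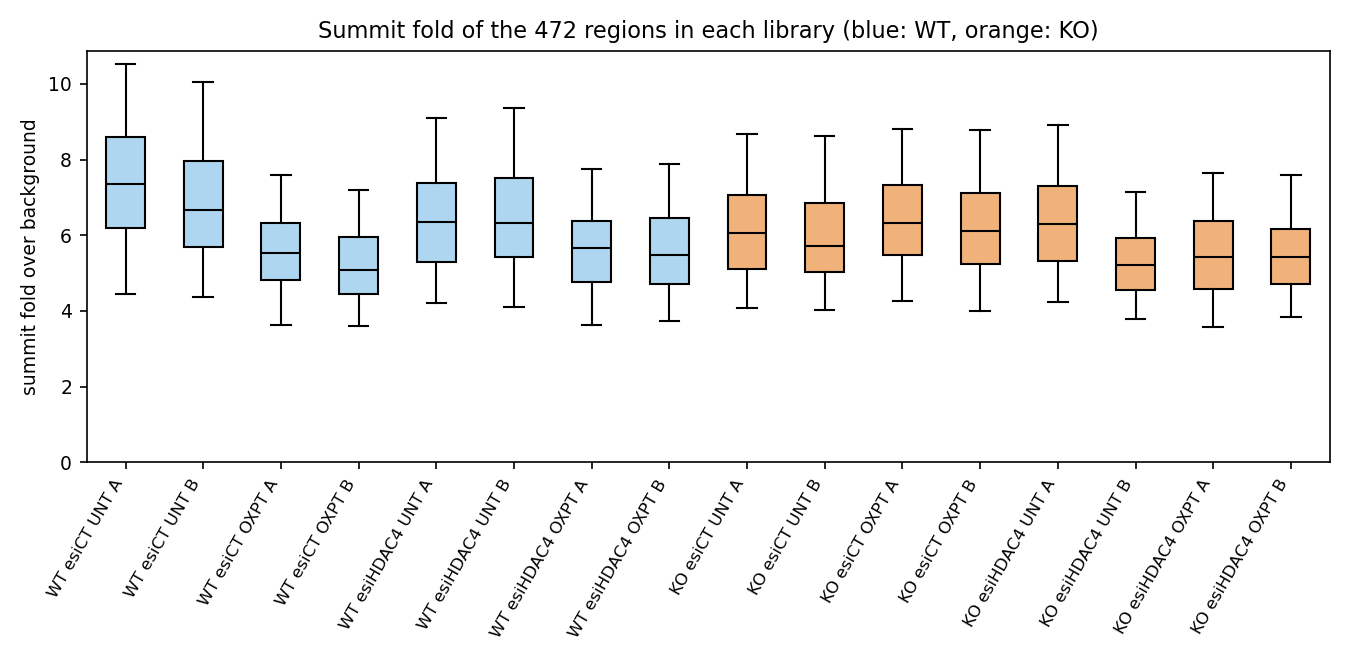
Boxes show the median and quartiles and whiskers the 5th and 95th percentiles of the summit fold (a ratio to local background, axis from 0) of the 472 regions in each of the 16 libraries, WT in blue and KO in orange. The lowest median is 5.09 (WT esiCT OXPT replicate B) and the highest 7.37 (replicate A of WT esiCT UNT).

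Genes at the regions were few. Of 19962 protein-coding genes, 189 (0.947%) had a start site within 1 kb of one of the 472 regions, against 2813 (14.1%) at 12 to 15 libraries. The cell line's epithelial character was visible in the lists: all 9 epithelial markers had a start-site peak in 8 to 16 libraries, KRT8 and KRT18 in all 16, while of the markers of other cell types reported here COL1A1 had one in 11 libraries and 6 had none. Neither FBXW7 nor HDAC4 had a start site at one of the 472 regions.

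Of housekeeping genes, active in every cell, few or none were at the 472 regions, as for protein-coding genes at large with their 0.947%. Cytosolic ribosomal protein genes had 2 of 79 (2.53%, RPL37A and RPL23A) and 64 of 79 (81.0%) at 12 to 15 libraries. Splicing factors of the hnRNP and SR families had 0 of 29 and 24 of 29, proteasome subunits 0 of 31 and 11 of 31, and translation factors 1 of 35 (2.86%, EEF1A1) and 16 of 35. Intestinal transcription factors had 0 of 22 and 3 of 22, AP-1 and ATF factors 0 of 18 and 8 of 18, and class IIa HDACs, MEF2 factors and corepressors 0 of 11 and 4 of 11. Genes of other cell types had 0 of 20 in both.

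Some lists had more members. Replication-dependent histone genes, which supply new chromatin in S phase, had 10 of 66 (15.2%) at 6 regions and 24 of 66 at 12 to 15 libraries. Histone genes are close copies, and the placing of reads that match several copies is not stated in the methods. Glycolysis had 3 of 18 (ENO1, ALDOA and PGAM1), FBXW7 substrates 2 of 14 (SREBF1 and TGIF1) and keratins and junction genes 2 of 26 (KRT18 and KRT8, which share a region). The WNT pathway had 2 of 25, namely RNF43, a ubiquitin ligase that removes WNT receptors, and TCF7L2, the factor that takes the WNT signal to DNA. Among p53 targets only CDKN1A of 23 was at a region, and among the BCL2 family only BCL2L1 of 16. Of 10 loci that the study followed up, 1 (RNF43) was at a region. That list was chosen by the study on these samples and is not independent evidence.

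Genes of microRNAs, short RNAs that silence messenger RNAs through their seed, lay in 15 of the regions. There were 16 such genes, of which 13 matched RefSeq (GRCh38.p14), and MIR378D2, MIR4664 and MIR661 are named only. The mature forms that RefSeq lists for the matched genes in regions that lay in SEs of 10 or more libraries, and of MIR196B in the HOXA cluster, are shown with the seed (bases 2 to 8) in capitals. No pair of these shared a seed.

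hsa-miR-21-5p: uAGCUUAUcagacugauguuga
hsa-let-7a-5p: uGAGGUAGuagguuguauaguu
hsa-let-7a-2-3p: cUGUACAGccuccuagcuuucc
hsa-miR-100-5p: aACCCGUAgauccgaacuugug
hsa-miR-100-3p: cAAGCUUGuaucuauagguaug
hsa-miR-5702: uGAGUCAGcaacauaucccaug
hsa-miR-4492: gGGGCUGGgcgcgcgcc
hsa-miR-619-3p: gACCUGGAcauguuugugcccagu
hsa-miR-196b-5p: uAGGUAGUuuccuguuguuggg
hsa-miR-196b-3p: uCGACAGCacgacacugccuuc

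MIR21 lies in an exon of VMP1 and in TUBD1 region 2, which was in an SE in 16 libraries at a mean percentile of 55.2. MIRLET7A2 and MIR100 lie in BLID region 1 (10 libraries, 76.5) and MIR5702 in IRS1 region 2 (16 libraries, 86.1), near the gene of an insulin receptor substrate. MIR4492 lies in the region of BCL9L (15 libraries, 68.6), MIR619 in that of SSH1 (10 libraries, 56.7), and MIR196B in that of HOXA9 and HOXA10 (5 libraries, 57.0). H3K27ac does not measure the RNA.

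The comparison of KO and WT cells asked whether regions present in every library still differed in the rank of their summit fold. The strongest summit of a region need not be the same site in each library. In a limma fit of the percentiles over all 472 regions, with 8 groups and the replicate letter as a block, 7 regions (1.48%) passed an adjusted p of 0.05, of which 2 were higher and 5 lower in KO cells, and 101 (21.4%) had an unadjusted p under 0.05. With a letter effect of its own for each genotype, an alternative added after seeing the data, 32 regions passed (15 higher, 17 lower), all 7 among them. This alternative takes the letter differences within a genotype out of the spread, so its p-values for KO against WT may be too small. No region had all KO values above or below all WT values. Libraries of the same genotype and letter ranked the regions more alike (mean rho 0.511) than replicates of a group did (0.381). The fit counts the 8 libraries of a genotype separately, so the ± errors and p-values for KO against WT may be too small. Differences are in percentile points, KO minus WT, and percentiles in a library have a fixed sum, so a region that gains rank takes it from others.

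TMEM67 region 1 (chr8:93817743-93825129), 22.925 kb from the start site of a gene for a protein of the ciliary membrane, was higher in KO cells. Its percentile was 11.5, 62.8 and 84.4 in KO (lowest, median, highest of 8) and 0.530, 5.83 and 20.02 in WT cells, and its fold had medians of 6.25 and 3.97. Only KO esiHDAC4 UNT replicate A fell within the WT range. The difference was 51.7 ± 10.2 (SE, n = 8 against 8, adjusted p = 0.0035), and 43.96 within replicate A and 59.4 within replicate B.

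The HAS3 region (chr16:69068036-69075653) lies in an intron of TANGO6, 30000 bp from the start site of HAS3, a hyaluronan synthase. Its percentile was 28.4, 62.7 and 96.3 in KO and 3.28, 14.5 and 34.5 in WT cells. The KO replicate A libraries were the high ones, at 82.9 to 96.3, against 28.4 to 42.5 in KO replicate B. The difference was 47.1 ± 11.2 (SE, adjusted p = 0.0137), with 69.1 within replicate A and 25 within replicate B.

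H4C2, a histone H4 gene of the cluster on chromosome 6 (chr6:26024792-26030920), was lower in KO cells. Its percentile was 0.318, 2.17 and 21.7 in KO and 10.9, 49.9 and 67.3 in WT cells, with median folds of 3.33 and 5.67. Most KO values lay near the bottom of the ranking, and the overlap came from KO esiCT UNT replicate B and the WT esiCT UNT libraries. The difference was -38.1 ± 8.13 (SE, adjusted p = 0.00596), with -42.1 and -34.1 within the letters. Of the 6 histone regions, 3 had a positive and 3 a negative difference, and H4C2 alone passed. The next was H2AC15 and H2BC15, with 31.7 and an adjusted p of 0.0523 (0.0274 with the letter effect within genotype).

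At GSDMC, a gasdermin gene (chr8:129704828-129712510, 65.077 kb away), the percentile had medians of 11.7 in KO and 68.2 in WT cells and the difference was -45.5 (adjusted p = 0.0137). At DIPK2B (chrX:45705785-45718603, 504.884 kb away) the medians were 26.6 and 81.0 and the difference -46.7 (adjusted p = 0.0314), with -63.1 within replicate A and -30.4 within replicate B. These regions stood in the upper ranks of WT and the lower ranks of KO cells. CYTH4 (chr22:37315240-37333614), 5.272 kb from the gene of an exchange factor for ARF GTPases, differed by -32.7 (adjusted p = 0.0343). MYOF region 2 (chr10:93457870-93482693), at the start site of myoferlin, which acts in membrane repair, differed by -29.99 (adjusted p = 0.0137). Both were still above the middle of the ranking in KO cells, with medians of 62.6 and 60.9 against 95.8 and 97.0 in WT.

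**Figure D4:**
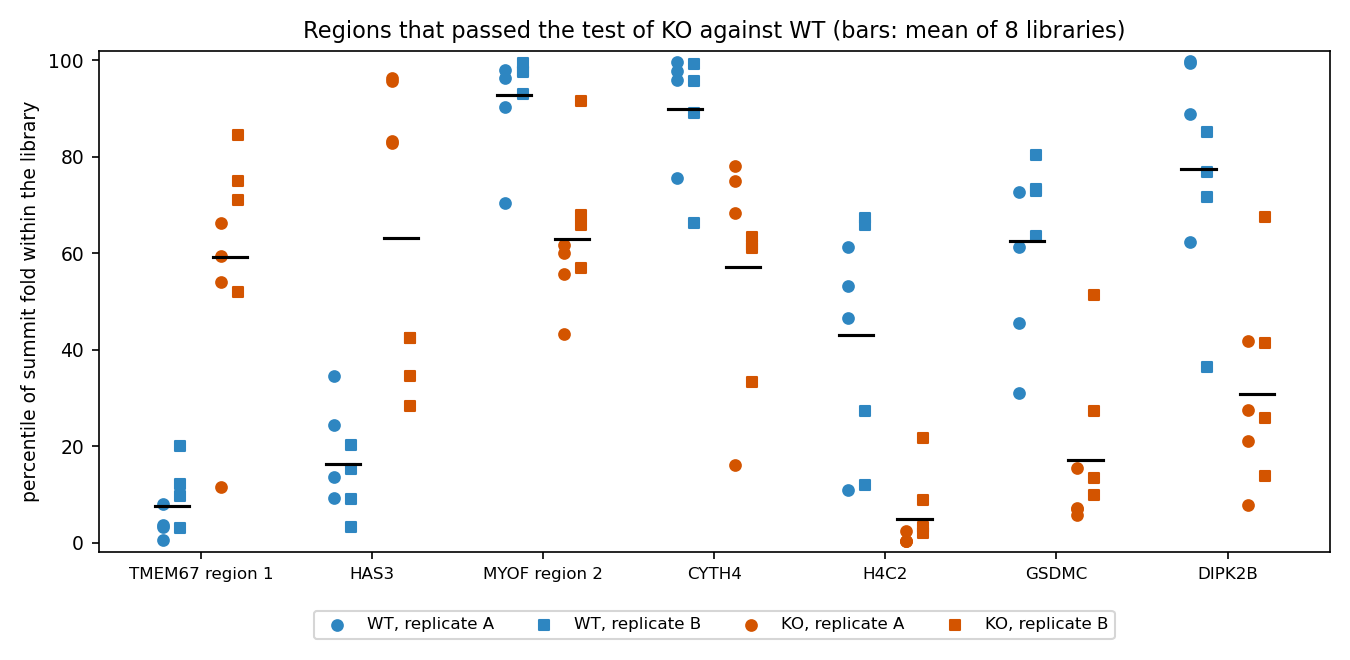
Points give the percentile of the summit fold (0 to 100, within a library among the 472 regions) of the 7 regions that passed, for 8 WT (blue) and 8 KO (orange) libraries, with circles for replicate A, squares for replicate B and bars for the mean of 8. TMEM67 region 1 and HAS3 lie higher in KO cells, the other 5 lie lower, and the values of both genotypes overlap in every region.

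These 7 regions had the same sign in 27 of 27 alternative settings planned and passed in 12 (CYTH4) to 24 (TMEM67 region 1 and H4C2) of them. The number of regions that passed was 14 without WT esiCT UNT replicate A and 13 without KO esiHDAC4 UNT replicate B, but 3 without WT esiHDAC4 UNT replicate A and 2 without WT esiHDAC4 OXPT replicate A. The length of the peak list moved with genotype, at 1752 to 21875 peaks in KO and 10562 to 27927 in WT cells, and with its log2 as a covariate 3 regions passed, HAS3 and CYTH4 among them (adjusted p = 0.0245 each), while TMEM67 region 1 had an adjusted p of 0.189. On the centred log2 fold, an alternative added after seeing the data, 9 of the 472 (1.91%) and 46 of 3623 regions at 12 to 15 libraries (1.27%) passed when tested together. Of the 9, 3 were higher and 6 lower in KO cells, and of the 46, 13 were higher and 33 lower. A KO library, KO esiHDAC4 UNT replicate B, set the limit of the group. Whether this left out regions that are lower in KO cells was not tested.

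By class, start-site regions had a median difference of -3.77 (n = 164, of which 2 passed, both lower), and the others 1.99 (n = 308, 2 higher and 3 lower), against 0.417 over all 472. The 70 regions in an SE in all libraries had a median of 6.49 with 51 positive differences, against 244 of all 472, and none passed. The fewest regions in an SE were in a KO library, KO esiHDAC4 UNT replicate B (99). Whether choosing regions by the SEs of all libraries favours high ranks in KO cells was not tested. With the letter effect within genotype, 2 start-site regions were higher and 7 lower, 13 of the others were higher and 10 lower, and of the 70 regions 4 were higher. Base composition differed between the letters, as given above, and the share of a list that lay in the 472 regions averaged 21.2% ± 18.6 (SD, n = 8) in KO and 7.55% ± 3.96 in WT cells. Their part in these medians was not tested. RNF43 region 2, in an SE in 16 libraries, had a difference of 28.8 with an adjusted p of 0.0933 (0.0366 with the letter effect within genotype).

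For OXPT against UNT, 0 regions (0%) passed in the limma fit, 30 (6.36%) had an unadjusted p under 0.05, and the smallest adjusted p was 0.0893. The median SE of a difference was 10.9 points, so shifts of this size were not detectable for most regions. That smallest p belonged to MTHFD1L region 1 (chr6:150855473-150859043), 6.636 kb from the gene of a mitochondrial folate enzyme. Its percentile was 11.8, 61.9 and 97.5 in OXPT (lowest, median, highest of 8) and 1.38, 9.59 and 34.2 in UNT libraries, a difference of 43.9 ± 10.8 (SE). It passed without KO esiHDAC4 UNT replicate B, the only region to do so, and with the letter effect fitted within each genotype 1 region passed, again MTHFD1L region 1 (adjusted p = 0.0486).

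CDKN1A, which encodes the cell cycle inhibitor p21 and is induced by p53, had percentiles of 11.2, 67.5 and 97.8 in OXPT and 6.36, 20.7 and 65.6 in UNT libraries. The ranges overlapped widely, and the difference of 38.8 ± 12.1 did not pass (adjusted p = 0.294). ABCC2, a pump for organic anions, had 39.2. The region near SOCS3, 42.557 kb from the start site of this inhibitor of cytokine signalling, had -24.5. The region near ODAD2 had -20.7 and that of H3C4, H2AC7 and H2BC7 -28.2, and none of these regions passed. Of 3623 regions at 12 to 15 libraries on the centred log2 fold, 5 (0.138%) passed, and of the 472 tested with them 0 (0%), with 32 at an unadjusted p under 0.05.

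For esiHDAC4 against esiCT, 0 regions (0%) passed, 18 (3.81%) had an unadjusted p under 0.05, and the smallest adjusted p was 0.791 in limma. The largest changes among the smallest p-values were at ZMYND8, a reader of acetylated histones, with 38.3 ± 12.4 and percentiles of 27.9, 73.9 and 95.02 after esiHDAC4 and 6.67, 23.7 and 72.9 after esiCT. RPL23A had 21.6, MTFP1, a gene of mitochondrial fission, 21.2, NSMCE2 region 2 -31.0, SLC16A3, a lactate exporter, -25.7 and the region near CERS2, a ceramide synthase gene, -22.8. None of them passed, and the ranges overlapped in each.

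Whether OXPT acted differently in KO and WT cells was tested as the difference of its effects. In limma 0 regions (0%) passed, 17 (3.602%) had an unadjusted p under 0.05, and the smallest adjusted p was 0.786, with a median SE of 21.9. FAM184A region 1 (57.5), ITPRID2 region 4 (36.5) and BLID region 3 (40.3) had the smallest p-values among positive differences, and SMURF2 region 2 (-50.8), GRIN2B region 3 (-54.7) and SERP2 region 2 (-62.5) among negative ones.

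The study's own main contrast was esiHDAC4 against esiCT in KO cells given OXPT, with 2 libraries on each side. Here 0 regions (0%) passed in limma, 23 (4.87%) had an unadjusted p under 0.05 and the smallest adjusted p was 0.793. RNF43 region 1 (chr17:58387874-58391525), in an intron of RNF43 and in an SE in 16 libraries, had percentiles of 31.2 and 82.9 after esiHDAC4 and 9.64 and 19.3 after esiCT, with folds of 4.79 and 6.50 against 4.59 and 5.10. Both esiHDAC4 values were higher, but the difference of 42.6 ± 15.9 did not pass. RNF43 region 2 (chr17:58394867-58417497), which holds the start site of the gene, had percentiles of 71.3 and 64.5 after esiHDAC4 and 97.6 and 84.6 after esiCT, with folds of 6.15 and 5.79 against 9.36 and 7.63. Here both esiHDAC4 values were lower, and the difference of -23.2 ± 20.4 did not pass either (adjusted p = 0.984). FAM222B had 76.9 and SSH1 55.7, and GJE1 region 1 had -55.9, USP46 -57.7 and NACA2 region 1 -37.0.

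Summaries of the 472 regions per library were compared with a two-sided exact permutation test within letters (4900 arrangements, smallest possible p 0.000408), with 15 tests adjusted together, and none passed. Among the 15 were those of the share of a list that lay in the 472 regions, for which no p is given, since the peak calls that chose the regions also set it. The median log2 fold averaged 2.49 ± 0.10 in OXPT and 2.64 ± 0.15 in UNT libraries (SD, n = 8 each), a difference of -0.15 (exact permutation p = 0.0322, adjusted p = 0.242). The median of the longest peak averaged 1654 ± 939 bp in KO and 2624 ± 1105 bp in WT cells (exact permutation p = 0.0702, adjusted p = 0.351). The share of a list that lay in the 472 regions, given above for KO and WT, was highest in the shortest list, KO esiHDAC4 UNT replicate B, at 61.9%, and without it the difference was 7.81 points in place of 13.6.

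In esiCT cells both letters moved the same way with OXPT. The median of the longest peak was 4224 and 3994 bp in WT UNT (replicates A and B) and 2109 and 1116 bp in WT OXPT, but 1752.5 and 1103.5 bp in KO UNT and 2871 and 1217.5 bp in KO OXPT. The share of the 472 regions inside an SE was 64.2% and 72.5% in WT UNT and 50.8% and 46.8% in WT OXPT, and 49.4% and 49.2% in KO UNT and 70.1% and 63.1% in KO OXPT. With esiHDAC4 the WT libraries also had lower values after OXPT, while the KO libraries went down in replicate A and up in replicate B.

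**Figure D5:**
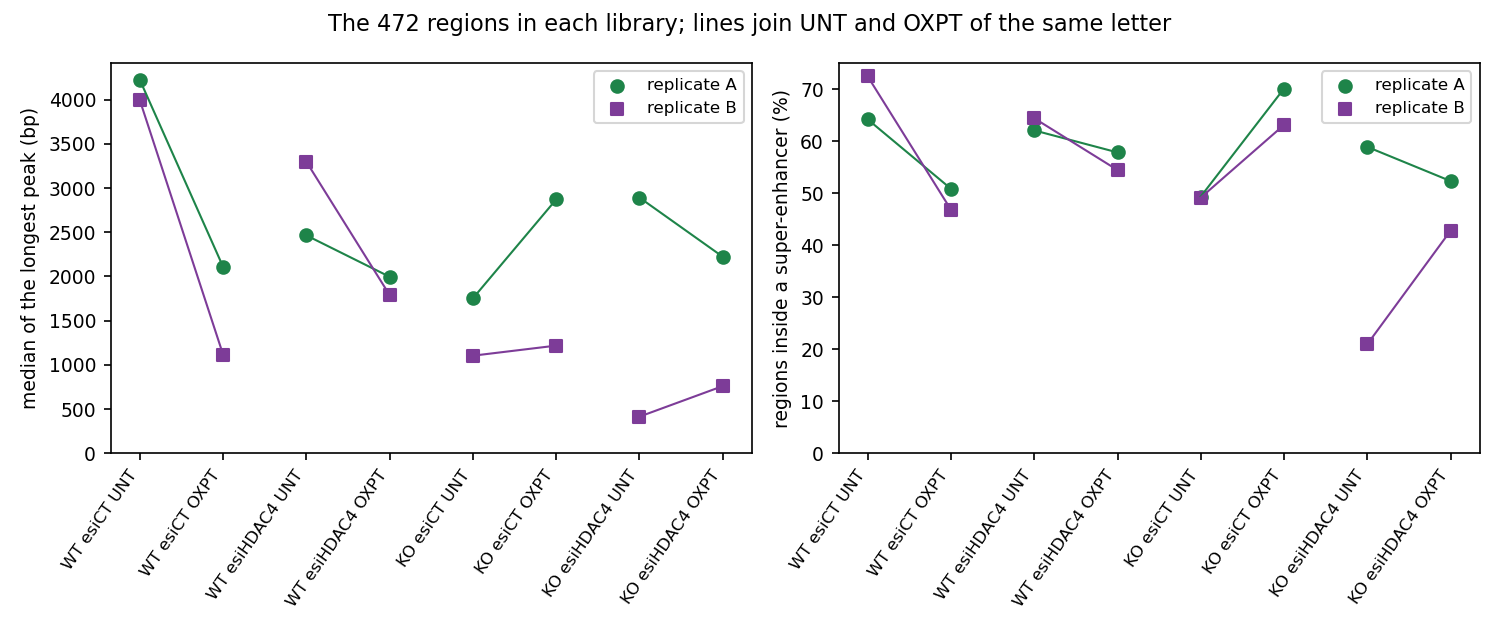
Points give, for each group and replicate letter, the median over the 472 regions of the longest peak (bp, left) and the share of the regions inside an SE of that library (%, right), and lines join UNT and OXPT of the same letter. In esiCT cells both measures are lower after OXPT in WT (4224 to 2109 bp and 3994 to 1116 bp) and higher in KO cells (1752.5 to 2871 bp and 1103.5 to 1217.5 bp).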

How the data were processed

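H3K27ac was measured by chromatin immunoprecipitation and sequencing in 16 libraries, placed in their groups by the labels. The 4 input samples were not analysed here. Per the submitters' processing notes the authors used Trimmomatic 0.39 for trimming, Bowtie2 2.4.4 for alignment (hg38), SAMtools 1.18 for duplicates and MACS2 2.2.7.1 for peaks in each library, and SEs came from ROSE. The study's methods filter SEs on H3K4me1, but no source states that the lists deposited for each library are filtered ones. The deposited peak lists give each peak's fold as a ratio of summit pileup to local background, with a small constant added to both. The deposited p-values and q-values are on a −log10 scale, and the deposited score is a whole number made from the q-value and was not used.

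Each region took the fold of its strongest peak in a library, as a percentile among the 472. These were fitted with limma 3.58.1 in R 4.3.3 (lmFit, eBayes with a variance trend, 8 groups and the letter, 7 residual degrees of freedom), with Benjamini-Hochberg adjustment over all 472 regions. The study itself tested read counts with replicate and condition in the model. Read counts were not used here, so the letter was kept as a block on ranks. The fit was tested on simulated data with a letter effect shared by both genotypes and separate noise in each library. That does not show how the fit behaves where letter effects differ between genotypes. Per-library summaries were compared by exact permutation in Python 3.11.15 with scipy 1.17.1. Summit and background fragments were solved from the fold and the −log10 p (tolerance 0.01), in 85.6% to 100% of the regions of a library, and depth is otherwise unknown. Genes and start sites came from GENCODE 44, and G and C content and motifs from hg38. All peak ends lay within the reference chromosome lengths.

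The members and lists were chosen with earlier results of these data known. A marker of another cell type on these lists is not reported here. Regions were named in the text by rule: for the 3 main contrasts up to 5 regions in each direction among those that passed, or the 3 with the smallest p in each direction where none did, likewise 3 for the other 2 contrasts, the 8 highest mean percentiles, the 5 widest, the 5 smallest and 5 largest within-group SDs, and the 5 nearest each side of the selection limit. Alternatives were the rank scale, the covariates, the block, the merging, thresholds and leaving out each library.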

Additional observations from a re-analysis of the deposited data

Results flagged for a closer look

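In esiCT cells, 4 summaries of the 472 regions moved one way with OXPT in both WT libraries and the other way in both KO libraries. The difference between the genotypes was not tested for these summaries. Values are OXPT minus UNT within a letter, replicate A first. The median log2 summit fold differed by -0.411 and -0.392 in WT and by 0.062 and 0.096 in KO cells. The median of the longest peak differed by -2115 and -2878 bp in WT and by 1118.5 and 114 bp in KO cells. The share of the regions inside an SE differed by -13.3 and -25.6 percentage points in WT and by 20.8 and 13.98 in KO cells. The share of the peak list that lay in the regions differed by 2.89 and 11.9 percentage points in WT and by -5.94 and -7.08 in KO cells. The lists themselves were shorter after OXPT in both WT replicates (27927 to 24346 and 25333 to 10562 peaks) and longer in both KO replicates (12639 to 21875 and 6126 to 8216 peaks), and the part of list length in these summaries was not tested.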

How the results depend on the processing

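For KO against WT, 7 regions passed, and 12 passed with normal scores, 14 with the centred log2 fold, 12 when ranked by −log10 p, 12 with main effects, 3 with the number of peaks as covariate and 0 among regions called in at least 12 libraries, where percentiles stop at 0 and 100. Alternatives added after seeing the data gave 55 (regions called in at least 12 libraries, centred log2 fold) and 32 (replicate block within genotype). Leaving out each library gave 2 to 14. For OXPT against UNT, 0 passed, and 1 with −log10 p, 1 with the number of peaks as covariate, 1 with main effects, 1 with the replicate block within genotype, 5 at 12 or more libraries on the centred log2 fold, and 0 to 1 without each library. The causes were not tested. For the other contrasts 0 passed under every alternative run.

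The no replicate block fit gave 7 regions for KO against WT and 0 elsewhere. The letters were not a pairing over all groups: deviations of same-lettered libraries correlated at -0.078 to 0.385 over 28 pairs of groups, with all 12 pairs within a genotype above 0.1 and 0 of 16 across genotypes.

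The number of regions called in all libraries was 472, and 68 with a −log10 q of at least 5, 84 with equal-length lists, 4572 and 513 with only letter A or B (added after seeing the data) and 472 to 1120 without each library. The start-site share of the regions called in all libraries, 34.7%, was 39.6% with merging within 500 bp, 30.3% when the region had to overlap the start site, 22.9% when the summit had to be within 1 kb, 65.3% and 29.4% with only letter A or B, and 33.6% to 41.6% without each library. The super-enhancer share of the regions called in all libraries was 68.9% to 82.5% without each library. The median width of the regions called in all libraries was 8251 bp with merging within 500 bp, 1930.5 bp as the longest peak, and 4759 to 6304 bp without each library.

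Summaries that did not pass turned direction in some settings. The 90th to 10th percentile ratio of fold, esiHDAC4 against esiCT, differed by 0.0359 within letter A. The share of members inside a super-enhancer, OXPT against UNT, differed by -0.397 points over all libraries, by 0.0530 within letter B and by -5.29 to 2.07 without each library. The share of the list in member regions, OXPT against UNT, ran from -5.37 to 3.13 without each library, and esiHDAC4 against esiCT from -2.18 to 6.50, the turns coming without KO esiHDAC4 UNT replicate B. The share of the list in member regions, KO against WT, ran from 7.81 to 15.7 and is a description, since the peak calls that chose the regions also set it. Of the values for single named regions, 835 had the same direction and side of the threshold, 54 were weaker and 5 stronger. All 54 weaker values belonged to the 7 regions that passed for KO against WT. Most named regions did not pass in the main fit, and their staying so is counted among the 835. Few fragments at the summits, a median of 13 in the shortest list, limit the ranks.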
